A study of Mus musculus with 6 samples.

Results

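Leptin, other adipokines and their receptors were examined in mouse ovarian tumors grown in hosts with or without *Tgm2*, the gene of transglutaminase 2. The set held 10 of the 20076 genes in the table, with 7 adipokine genes (*Lep*, *Adipoq*, *Retn*, *Cfd*, *Rarres2*, *Nampt* and *Apln*) and 3 receptor genes (*Lepr*, *Adipor1* and *Adipor2*). These genes were chosen by name, with the difference between knockout and WT tumors already known, so their values in that contrast are given as a description, with no p-value.

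Bulk poly(A) RNA sequencing was performed on 6 primary tumors. The WT group held 3 tumors from C57BL/6 hosts, and the *Tgm2* knockout group held 3 tumors from *Tgm2* knockout hosts, both bred in-house. The paper names the hosts as C57BL/6 WT and *Tgm2* knockout mice, which can be read as giving that strain for both groups. Every host, aged 6 to 10 weeks, received ID8 Trp53-/- Brca1-/- cells under the ovarian bursa, and the tumors were collected 6 weeks later. ID8 is a line derived from mouse ovarian surface epithelium, and the deletions of *Trp53* and *Brca1* were therefore carried by the cancer cells of both groups. The genotype that differed was that of the host, and the injected cells brought their own *Tgm2*. The labels name the cell type as cancer cells, but the RNA came from whole tumors: *Wt1*, a marker of the cancer epithelium, had 13131 to 20641 normalized counts, and the fibroblast collagen gene *Col1a1* had 24789 to 89048.

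Adipokines are proteins that adipose tissue releases into the blood or to its surroundings. Leptin is made almost exclusively by adipocytes in proportion to fat stores and acts through a cytokine receptor that signals by JAK2 and STAT3, whereas adiponectin acts through a pair of membrane receptors linked to lipid and glucose use. In mice, resistin and complement factor D (adipsin) are also products mainly of adipocytes, while chemerin, NAMPT and apelin are made by many cell types.

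*Tgm2* itself had 14978, 12155 and 13180 normalized counts in WT tumors 1, 2 and 3, and 5853, 6071 and 8157 in knockout tumors 1, 2 and 3. The ratio of means was 0.50, all 3 knockout tumors were below all 3 WT tumors (log2 fold change -1.02, limma adjusted p = 0.391), and *Tgm2* transcripts were present in each tumor. The normalized counts of all genes summed to between 32316613 and 37717165 per tumor, and 1 read was worth an estimated 0.94 to 1.09 normalized counts, so the tumors differed little in depth.

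Some tumors stood apart in genes of other tissues, which were singled out after their values were seen. *Epcam*, an epithelial adhesion gene, had 8047 normalized counts in WT tumor 3 and 90.5 to 1307 in the others. The steroid enzyme gene *Hsd3b1*, a marker of ovarian steroid cells, had 25704 in knockout tumor 1 and 5526 in WT tumor 1, but 1.08 to 68.1 in the other 4 tumors. *Ucp1*, the uncoupling protein of brown adipocytes, had 183 in knockout tumor 2 and 0 to 3.79 elsewhere. Their part in the adipokine values was not tested, and fold changes without single tumors are given with the genes.

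Promoter sequences of the 4 genes made mainly by adipocytes are shown because these genes had the highest log2 fold changes of the set, and the letters let their promoters be compared. RefSeq promoters of the build GRCm38.p6 matched 9 of the 10 genes, all but *Rarres2*. Each line is 120 bases of the plus strand next to the start of the gene, 5′ to 3′, and capitals mark the letters searched on both strands: the C/EBP palindrome TTGCGCAA and its looser form TTGCNNAA, the GC box GGGCGG, the CCAAT box and the TATA box TATAAA.
Lep, chr6:29060099-29060218: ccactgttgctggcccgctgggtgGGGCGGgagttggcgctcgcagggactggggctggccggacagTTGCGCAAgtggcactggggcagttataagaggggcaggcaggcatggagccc
Adipoq, chr16:23146414-23146533: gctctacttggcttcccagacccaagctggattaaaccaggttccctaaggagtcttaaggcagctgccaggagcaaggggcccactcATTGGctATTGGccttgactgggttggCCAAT
Retn, chr8:3655648-3655767: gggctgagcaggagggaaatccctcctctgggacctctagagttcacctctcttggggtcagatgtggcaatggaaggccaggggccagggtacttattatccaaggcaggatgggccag
Cfd, chr10:79890731-79890850: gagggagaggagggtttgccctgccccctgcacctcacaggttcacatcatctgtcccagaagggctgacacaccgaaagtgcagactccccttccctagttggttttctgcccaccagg

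The *Lep* promoter held TTGCGCAA, the palindrome known from C/EBP proteins, 55 bases before the start. These letters occurred within 250 bases upstream in 0.164% of 32851 RefSeq promoters, and in *Lep* alone among the 9 genes matched. The looser form TTGCNNAA, which the palindrome contains, occurred in 9.56% of promoters. The GC box GGGCGG of *Lep* lay 98 bases before the start, and 32.7% of promoters held one, those of *Adipor1*, *Apln*, *Lepr* and *Nampt* among them. The *Adipoq* promoter held CCAAT 3 times, at 34, 27 and 7 bases before the start, against a share of 33.8% of promoters with at least 1 match. None of the 5 sets of letters was found in the *Retn* or *Cfd* windows, and TATAAA, found in 12.4% of promoters, was in none of the members' windows. A match is only a description of the letters.

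Leptin transcripts were more abundant in all 3 knockout tumors than in any WT tumor. *Lep* (chr6:29060220-29073877, plus strand, GRCm38) had 43.5, 40.7 and 18.2 normalized counts in WT tumors 1, 2 and 3, which was an estimated 46.2, 39.2 and 17.9 reads. In knockout tumors 1, 2 and 3 it had 334, 494 and 512 normalized counts, or an estimated 353, 504 and 470 reads. The groups did not overlap, since the lowest knockout tumor was 7.66-fold above the highest WT tumor. Means were 34.1 ± 13.9 in WT and 447 ± 98.3 in knockout tumors (SD, n = 3 each), a ratio of 13.1. On the log2(normalized counts + 1) scale used for all fold changes here, the difference was 3.74 with a standard error of 0.47. In bulk tissue, fewer cells of a type and less RNA per cell cannot be told apart.

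In the limma fit over 19667 genes, 20 genes were past the limits of an adjusted p of 0.05 and a log2 fold change of 1 as higher in knockout tumors, a background of 0.102%, and 0 as lower, a background of 0%. *Lep* was among the 20 and was the only one of the 10 genes there, and since it was chosen on this contrast, nothing is read from that count. The count of 20 depended on the fit, with 4 genes when the variance trend was left out, 5 with a replicate block, 0 with an adipocyte covariate and 2 to 15 without single tumors (2 without WT tumor 2). At an unadjusted p of 0.05 with the same fold limit, 491 genes (2.5%) were past the limits as higher and 305 (1.55%) as lower. Groups that did not overlap were found for *Lep* alone among the 10, against 5.18% of all genes higher and 5.33% lower, which describes the choice of genes and supports nothing. The log2 fold change of *Lep* was lowest, at 3.35, when WT tumor 3 was left out and highest, at 3.96, when WT tumor 1 was, but *Lep* was past the limits in 0 of these 6 fits, which have fewer samples, and in 6 of 11 other alternatives. The 11 include the main fit without its fold change limit, where *Lep* could not fail.

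**Figure D1:**
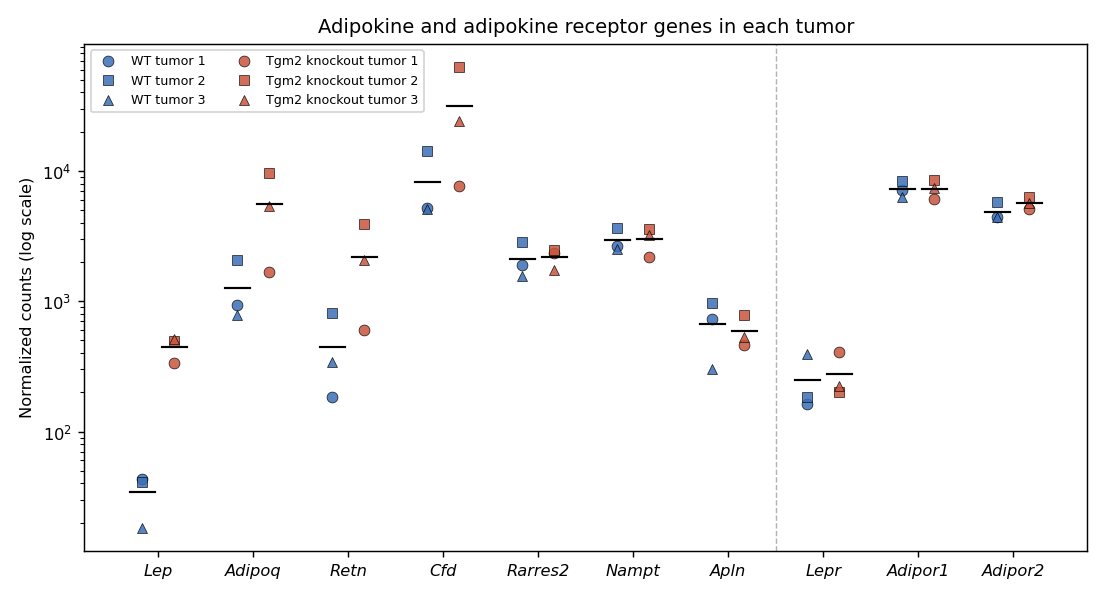
Normalized counts on a log axis for each of the 10 adipokine and receptor genes, with 1 point per tumor and a bar at each group mean. *Lep* is the gene with no overlap between WT (18.2 to 43.5) and *Tgm2* knockout tumors (334 to 512), while *Adipoq*, *Retn* and *Cfd* overlap through knockout tumor 1 and WT tumor 2.

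Adiponectin, resistin and factor D had higher means in knockout tumors, but their groups overlapped. *Adipoq* (chr16:23146536-23158028, plus strand), which encodes adiponectin, had 932, 2067 and 786 normalized counts in WT tumors 1, 2 and 3 and 1691, 9593 and 5412 in knockout tumors 1, 2 and 3. Knockout tumor 1 was below WT tumor 2. Means were 1262 ± 701 and 5565 ± 3953 (SD, n = 3 each), a ratio of 4.41, with a log2 fold change of 1.95 (SE 0.61).

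*Retn* (chr8:3655770-3660110, plus strand), which encodes the secreted cysteine-rich hormone resistin, had 185, 807 and 340.1 normalized counts in WT tumors 1, 2 and 3 and 601, 3939 and 2070.4 in knockout tumors 1, 2 and 3. Again knockout tumor 1 lay below WT tumor 2. The log2 fold change was 2.19 (SE 0.72), with means of 444 ± 324 and 2203 ± 1673 (SD, n = 3 each).

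*Cfd* (chr10:79890853-79892655, plus strand), the serine protease that starts the alternative complement pathway by cleaving factor B, had the highest mean level of the 10 genes per kilobase of exon. It had 5188, 14147 and 5127 normalized counts in WT tumors 1, 2 and 3 and 7697, 62686 and 24262 in knockout tumors 1, 2 and 3. Knockout tumor 2 was far above the rest, and knockout tumor 1 was within the WT range. The log2 fold change was 1.65 (SE 0.72), and it was 0.92 without knockout tumor 2. Without the same tumor, the log2 fold changes of *Adipoq* and *Retn* were 1.40 and 1.59, and without knockout tumor 1 those of *Adipoq*, *Retn* and *Cfd* were 2.65, 2.94 and 2.43.

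The spread among the 3 knockout tumors was smaller for *Lep* than for the other 3 genes, a difference that was not tested. From the lowest to the highest knockout tumor, *Lep* differed by 1.53-fold, *Adipoq* by 5.67-fold, *Retn* by 6.55-fold and *Cfd* by 8.14-fold. Among WT tumors the same quantity was 2.39-fold for *Lep*, 2.63-fold for *Adipoq*, 4.37-fold for *Retn* and 2.76-fold for *Cfd*. The order of the tumors differed too, because *Adipoq*, *Retn* and *Cfd* were all highest in knockout tumor 2 and highest among WT tumors in WT tumor 2, whereas *Lep* was highest in knockout tumor 3 and in WT tumor 1.

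**Figure D2:**
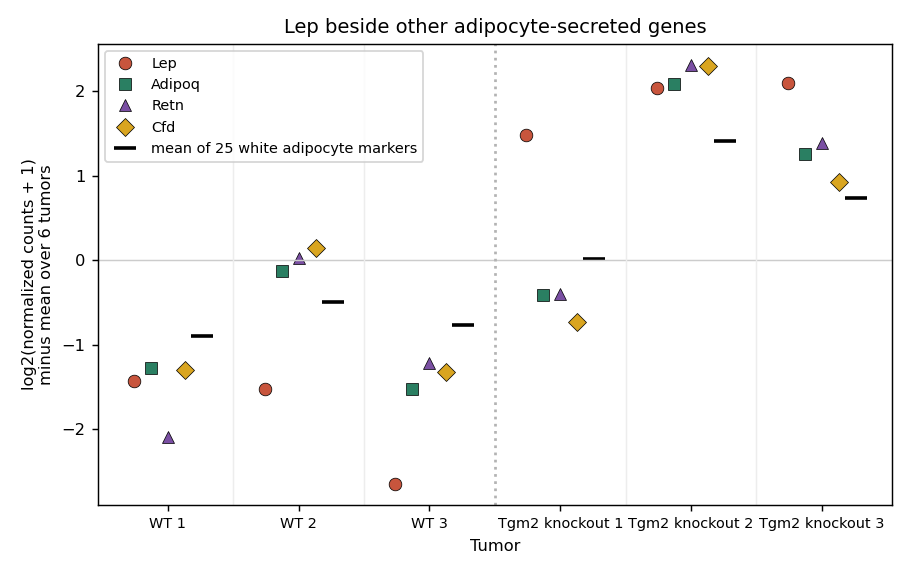
Log2(normalized counts + 1) of *Lep*, *Adipoq*, *Retn* and *Cfd* per tumor, with 25 white adipocyte markers averaged, each minus its own mean over the 6 tumors. In knockout tumor 1 *Lep* lies well above its mean while *Adipoq*, *Retn* and *Cfd* lie below theirs.

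The adipokine genes that many cell types express differed less between the groups. *Rarres2* (chr6:48569696-48572789, minus strand), the precursor of the chemoattractant chemerin, had 1902, 2824 and 1571 normalized counts in WT tumors 1, 2 and 3 and 2337, 2493 and 1739 in knockout tumors 1, 2 and 3. Its groups overlapped, with a log2 fold change of 0.09 (SE 0.26), and its exons share bases with *Lrrc61* on the opposite strand, a gene with a mean of 330 normalized counts. *Nampt* (chr12:32819545-32853349, plus strand), the rate-limiting enzyme of NAD salvage that is also secreted, had 2666, 3656 and 2535 in WT and 2188, 3584 and 3214 in knockout tumors. The knockout tumors held both the lowest *Nampt* value and one near the highest, and the log2 fold change was 0.01 (SE 0.25). *Apln* (chrX:48025146-48034853, minus strand), which encodes the vasoactive peptide apelin, had 736, 973 and 299.85 in WT and 464, 778 and 530.34 in knockout tumors. All 3 knockout values of *Apln* lay inside the WT range, and the log2 fold change was -0.05 (SE 0.44). Directions of these 3 genes depended on single tumors. Leaving out each tumor in turn gave *Rarres2* its lowest log2 fold change, -0.10, when WT tumor 3 was dropped and its highest, 0.32, when WT tumor 2 was. The range for *Nampt* was from -0.14 (without knockout tumor 2) to 0.22 (without knockout tumor 1), and *Apln* reached -0.55 when WT tumor 3 was dropped and 0.29 when WT tumor 2 was.

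The receptor genes also overlapped between the groups. *Lepr* (chr4:101717404-101815352, plus strand), the leptin receptor, had 163, 185 and 396 normalized counts in WT tumors 1, 2 and 3 and 404, 202 and 224 in knockout tumors 1, 2 and 3. The highest values of *Lepr* were in knockout tumor 1 and WT tumor 3, and the log2 fold change was 0.20 (SE 0.45), or -0.10 without knockout tumor 1 and 0.60 without WT tumor 3. Values were given per gene, so the long signaling form and the short forms among the 7 annotated transcripts of *Lepr* were not separated. *Adipor1* (chr1:134415378-134433351, plus strand), an adiponectin receptor linked to AMPK, had 7091, 8365 and 6349.8 in WT and 6052, 8531 and 7379 in knockout tumors, a log2 fold change of 0.01 (SE 0.22). *Adipor2* (chr6:119353150-119417704, minus strand), the receptor linked to PPARα, had 4434, 5747 and 4414 in WT and 5106, 6289.96 and 5709.95 in knockout tumors, a log2 fold change of 0.24 (SE 0.20). Without each tumor in turn, *Adipor1* ran from -0.11 to 0.14 and *Adipor2* from 0.16 to 0.36. Over all genes tested, log2 fold changes had a median of -0.03, or -0.05 when tumors were rescaled to equal sums. Equal sums or quantile normalization turned the sign of *Adipor1* and *Nampt*, so no direction is given for either gene.

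Levels of different genes were compared per kilobase of exon. In WT tumors the order of mean normalized counts per kilobase was *Cfd* (8844), *Adipor1* (1446), *Adipoq* (914), *Adipor2* (814), *Rarres2* (790.4), *Nampt* (584), *Retn* (281), *Apln* (213), *Lepr* (35.2) and *Lep* (10.2). Neighbors from *Adipor1* to *Apln* overlapped over the 3 tumors, whereas *Cfd* was above all others, and *Lep*, with 5.44 to 12.98 per kilobase, was below *Lepr*, with 23.1 to 56.1. In knockout tumors the order was *Cfd* (34218), *Adipoq* (4029.9), *Adipor1* (1457), *Retn* (1395), *Adipor2* (954), *Rarres2* (824), *Nampt* (593), *Apln* (188), *Lep* (133) and *Lepr* (39.3). There *Lep*, with 99.5 to 153 per kilobase, was above *Lepr*, with 28.7 to 57.4, and overlapped with *Apln*. Leptin transcripts thus remained scarce in both groups beside those of factor D and adiponectin.

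Markers of white adipocytes were also higher in knockout tumors on average. All 25 markers were above 0 in every tumor, and 24 had a log2 fold change above 0, with a median of 1.31 against -0.03 over all genes. By limma, 0 of the 25 were past the adjusted limits, 15 were past the unadjusted limits as higher and 0 as lower, against 2.5% and 1.55% of all genes. In 16 of the 25 all knockout tumors were above all WT tumors, against 5.18% of all genes. *Plin1*, which coats the lipid droplet, had 336, 512 and 125 normalized counts in WT tumors 1, 2 and 3 and 1107, 3501 and 1729.5 in knockout tumors 1, 2 and 3 (log2 fold change 2.76, limma adjusted p = 0.347). The desaturase gene *Scd1* was past the unadjusted limits (log2 fold change 1.43, limma adjusted p = 0.751). The lipase gene *Lpl* and *Mgst1* were not, with log2 fold changes of 0.48 and -0.04. The summed level of the 25 markers was 76615, 85648 and 66716 in WT tumors 1, 2 and 3 and 85764, 233975 and 166908 in knockout tumors 1, 2 and 3. Knockout tumor 1 and WT tumor 2 were nearly equal in this sum, whereas in *Adipoq*, *Retn* and *Cfd* knockout tumor 1 was the lower.

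Each gene was then set against these markers within its tumor, as its log2 value minus the mean log2 value of the 25 markers. That mean was 9.42, 9.81 and 9.54 in WT tumors 1, 2 and 3 and 10.3, 11.7 and 11.05 in knockout tumors 1, 2 and 3, a difference of 1.44. *Lep* was at -3.94, -4.43 and -5.28 relative to the markers in WT and at -1.93, -2.77 and -2.04 in knockout tumors. The groups were apart for *Lep*, by 2.30 on the log2 scale, as they were in this direction for 0.392% of all genes, with a range of 1.94 to 2.60 without each tumor in turn. *Lep* was chosen on the contrast of knockout and WT tumors, so nothing is read from that share. The difference relative to the markers was 0.51 for *Adipoq*, 0.75 for *Retn* and 0.21 for *Cfd*, each with overlapping groups. These rested on single tumors: without each in turn, *Adipoq* ran from 0.26 (without WT tumor 3) to 0.85 (without knockout tumor 1) and *Retn* was lowest, at 0.34, when WT tumor 1 was left out and highest, at 1.204, when WT tumor 2 was. *Cfd* turned sign, from -0.17 (without knockout tumor 2) to 0.64 (without knockout tumor 1). These differences also depended on the reference, with 3 others chosen after seeing the data. With *Plin1*, *Plin4*, *Cidec* and *Lipe* alone, they were 1.70 for *Lep*, -0.093 for *Adipoq*, 0.15 for *Retn* and -0.39 for *Cfd*. With *Adipoq* alone they were 1.79 for *Lep*, 0.24 for *Retn* and -0.30 for *Cfd*. Without *Lpl*, *Mgst1*, *Dgat2*, *Fasn* and *Nnat* they were 2.16, 0.37, 0.61 and 0.07 for *Lep*, *Adipoq*, *Retn* and *Cfd*. Relative to the markers, *Rarres2*, *Nampt*, *Apln*, *Adipor1* and *Adipor2* were lower in all knockout tumors than in any WT tumor, with differences of -1.35, -1.43, -1.50, -1.43 and -1.21, and *Lepr* differed by -1.24 with overlap (-0.70 without knockout tumor 2 and -1.90 without knockout tumor 1). The subtraction alone gives this for a gene with a fold change near 0, and 59.6% of all genes were likewise lower without overlap, so nothing about these 5 genes is read from it. Whether more adipocytes or more leptin transcript in each adipocyte gave the *Lep* values cannot be told apart in these bulk tumors.

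**Figure D3:**
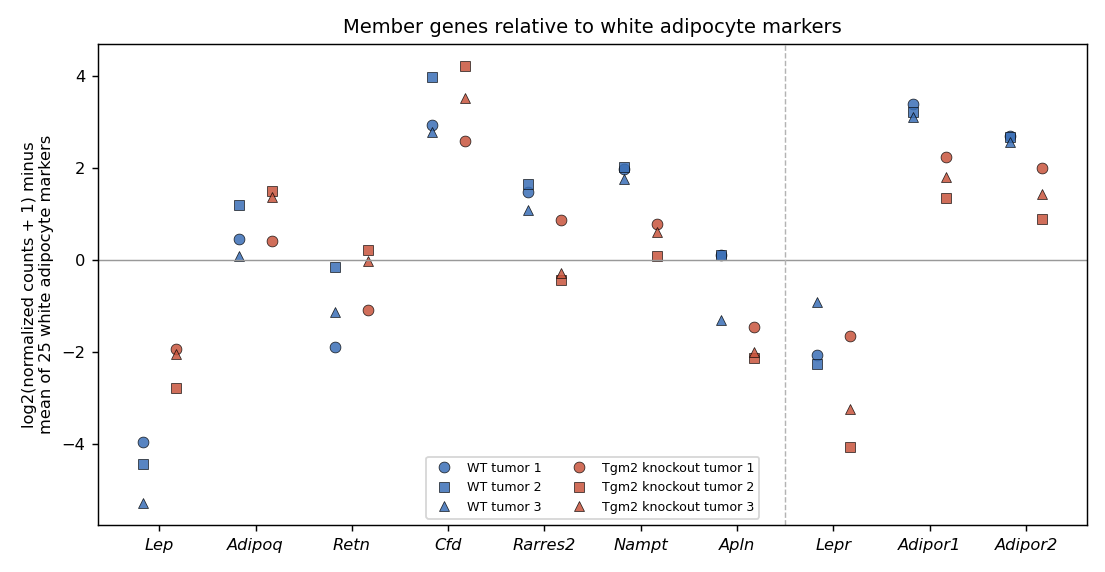
Log2(normalized counts + 1) of each of the 10 genes minus the mean of 25 white adipocyte markers in the same tumor, with 1 point per tumor. *Lep* sits between -5.28 and -3.94 in WT and between -2.77 and -1.93 in *Tgm2* knockout tumors, and 5 of the genes not made mainly by adipocytes sit lower in all knockout tumors, as 59.6% of all genes do.

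The ratio of *Lep* to single genes was also compared. Its mean was higher in knockout tumors for all 25 white adipocyte markers, and the groups were apart for 20 of the 25. This follows from the choice of *Lep*, since over 17378 genes above 0 in all tumors its ratio had a higher knockout mean for 99.8% and groups apart for 95.4%. The 5 with overlap, named after their values were seen, were *Plin1*, *Cidec*, *Dgat2*, *Thrsp* and *Car3*. Per 100 normalized counts of *Adipoq*, *Lep* had 4.67, 1.97 and 2.32 in WT tumors 1, 2 and 3 and 19.7, 5.15 and 9.46 in knockout tumors 1, 2 and 3, with no overlap. The ratios to *Retn* and *Cfd* overlapped, so groups were apart for 1 of these 3 adipokines. Per 100 of *Retn*, *Lep* had 23.5, 5.04 and 5.36 in WT and 55.5, 12.6 and 24.7 in knockout tumors. Per 100 of *Cfd* it had 0.84, 0.29 and 0.36 in WT and 4.34, 0.79 and 2.11 in knockout tumors. In both, knockout tumor 2 was below WT tumor 1. Per 100 of *Plin1*, *Lep* had 12.98, 7.95 and 14.6 in WT and 30.1, 14.1 and 29.6 in knockout tumors, so knockout tumor 2 lay just inside the WT range. Among the 10 genes and the 25 markers, *Lep* had the highest log2 fold change, but it was chosen on this contrast, so nothing is read from that rank.

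Brown adipocyte markers were measured for 8 genes, with 0 past the adjusted limits by limma and 2 past the unadjusted limits as higher, and a median log2 fold change of 1.09, beside 0.102% and 2.5% of all genes past those limits as higher. These were *Pank1*, a coenzyme A synthesis enzyme (log2 fold change 1.16, limma adjusted p = 0.682), and *Ppargc1a*, a coactivator of mitochondrial genes (1.03, adjusted p = 0.759). The defining marker *Ucp1* was near 0 except in knockout tumor 2, the tumor with the highest *Adipoq*, *Retn* and *Cfd*. The part of brown adipocytes in those values was not tested.

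The genes whose profile over the 6 tumors was most like *Lep* were found by the root mean square difference of centred log2 values among 16737 genes. The nearest were *Ighj4* at 0.30, *Slpi* at 0.30 and *Cd79a* at 0.51, followed by *Ahcyl*, *Prom2*, *Igkj5*, *Tmem182*, *Ly6a2*, *Plin1* and *Cacna1s* at up to 0.68. *Ighj4* and *Igkj5* are joining segments of immunoglobulin genes, *Cd79a* encodes a chain of the B cell receptor complex and *Slpi* a secreted inhibitor of proteases. *Slpi* had 515, 367 and 340.0 normalized counts in WT tumors 1, 2 and 3 and 3607, 5989 and 6720.1 in knockout tumors 1, 2 and 3. *Cd79a* had 114, 91.6 and 74.1 in WT and 686, 593 and 1022 in knockout tumors. Both were thus low in all WT and high in all knockout tumors, like *Lep*. *Plin1* was the only white adipocyte marker among these 10, and *Adipoq* stood at place 119 with 1.12, *Retn* at 178 and *Cfd* at 300. All distances rest on the same 6 libraries. They include the group difference on which *Lep* was chosen, so genes with a like difference come near *Lep* by construction. Nothing is read from their nearness.

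The nearest genes to *Adipoq* were *Ighv3-6*, an immunoglobulin variable segment, at 0.24, *Cfd* at 0.25 and *Fabp4*, the fatty acid binding protein of adipocytes, at 0.26. *Retn* was nearest to *Rbp4*, *Alkal2* and *Orm1*, with *Adipoq* at place 5 and *Cfd* at place 6, and *Cfd* was nearest to *Wfdc21*, *Adipoq* and *Ighv3-6*. The nearest 3 genes were *Hephl1*, *Scrn3* and *Gm6210* for *Rarres2*, *Mlycd*, *Yipf1* and *Atp5g1* for *Nampt*, and *Tubb3*, *H2ac8* and *Chac1* for *Apln*. For the receptors they were *Slc25a42*, *Zfp661* and *Nyap1* for *Lepr*, *Sdf4*, *Pop7* and *Rnf41* for *Adipor1*, and *Dnajb1*, *Serinc1* and *Tmed7* for *Adipor2*.

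Counts in the lists that follow stand beside 0.102% of all genes past the adjusted limits as higher and 0% as lower, and 2.5% and 1.55% past the unadjusted limits. A single gene is a large share of a short list, and nothing is read from such a share. Of 18 genes of leptin receptor signaling, 0 were past the adjusted limits by limma and 1 was past the unadjusted limits, as higher, and the median log2 fold change was 0.08. *Stat3*, the main transcription factor of the leptin receptor, differed by -0.13 (SE 0.24, limma adjusted p = 0.951). *Socs3*, a feedback inhibitor that leptin induces, differed by -0.34 (SE 0.23) and *Jak2*, the kinase bound to the receptor, by -0.13 (SE 0.25), both named after their values were seen.

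Adiponectin signaling and assembly had 0 of 13 genes past the adjusted limits by limma, 1 past the unadjusted limits as higher and a median log2 fold change of 0.03. That gene, *Gstk1*, which encodes a protein that assists adiponectin assembly, was higher in all knockout tumors (log2 fold change 1.01, limma adjusted p = 0.819). *Prkab1*, a regulatory subunit of AMPK named after its values were seen, was lower in all knockout tumors, with 1416 to 1553 normalized counts against 1887 to 2864 in WT (log2 fold change -0.60, limma adjusted p = 0.760). Of 11 paralogs of adiponectin, the C1q/TNF-related proteins, 0 were past either limit by limma, with a median of -0.0013. In the resistin family, 0 of 2 genes measured were past the adjusted limits by limma and 1 past the unadjusted limits, as higher. This was *Retnla*, a product of alternatively activated macrophages and of adipose tissue, which had 102, 49.6 and 107 normalized counts in WT and 162, 753 and 401 in knockout tumors, without overlap (log2 fold change 2.15, limma adjusted p = 0.649). *Retnlg* had 1.88 to 35.1 normalized counts in all tumors. The summed level of 7 macrophage markers was 32899.7, 21757 and 13564 in WT tumors 1, 2 and 3 and 16729.9, 46769 and 36084 in knockout tumors 1, 2 and 3, with overlap, and its part in *Retnla* was not tested.

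Of the 5 chemerin and apelin partners, 0 were past the adjusted limits by limma and 1 past the unadjusted limits, as higher, with a median log2 fold change of 0.79. This was *Aplnr*, the apelin receptor, with 746, 415 and 195 normalized counts in WT tumors 1, 2 and 3 and 980.0, 852 and 909.7 in knockout tumors 1, 2 and 3 (log2 fold change 1.21, limma adjusted p = 0.794). The groups did not overlap for *Aplnr*, while its ligand *Apln* did. *Apela*, the other ligand of this receptor, differed by -1.24 (SE 0.75) and the chemerin receptor gene *Cmklr1* by 0.79 (SE 0.35), both with overlap. *Gpr1* and *Ccrl2*, also in this list and named after their values were seen, were higher in all knockout tumors, as were 5.18% of all genes. Their log2 fold changes were 1.23 (SE 0.65) and 0.36 (SE 0.37), and *Gpr1* had at most 31.6 normalized counts in any tumor. Of 11 NAD synthesis partners of *Nampt*, 0 were past the adjusted limits by limma and 1 past the unadjusted limits, as lower, with a median log2 fold change of -0.05. It was *Nmrk2*, with at most 12.2 normalized counts in any tumor. Of 7 alternative complement partners of *Cfd*, 0 were past either limit by limma, with a median log2 fold change of -0.17, and *C3*, the central complement protein, differed by -0.17 (SE 0.42).

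Of 23 other genes counted as adipokines, 0 were past the adjusted limits by limma, 3 were past the unadjusted limits as higher and 1 as lower, with a median log2 fold change of 0.04. The 3 were *Rbp4*, the carrier of retinol (1.98, limma adjusted p = 0.689), *Agt*, the precursor of angiotensin (2.00, adjusted p = 0.387), and *Igf1*, a growth factor (1.28, adjusted p = 0.699). The angiogenic growth factor gene *Vegfa* had 5980.5, 7074 and 15173 normalized counts in WT tumors 1, 2 and 3 and 4599, 3131 and 2701 in knockout tumors 1, 2 and 3 (log2 fold change -1.35, limma adjusted p = 0.644). All 3 knockout tumors were below all WT tumors in *Vegfa*, with WT tumor 3 the highest.

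Markers of other cells that the tumors could hold are given beside the adipokines. By limma, 0 markers of cancer epithelium, fibroblasts, endothelium, pericytes, macrophages, neutrophils, ovarian follicles or skeletal muscle were past the adjusted limits, and 1, *Cd163* of macrophages, was past the unadjusted limits, as higher. Median log2 fold changes were -0.40 for 9 cancer epithelium markers, 0.65 for 8 fibroblast markers, 0.44 for 8 endothelial markers and 0.48 for 7 macrophage markers. They were 0.12 for 6 pericyte, -0.27 for 6 neutrophil, 0.83 for 7 ovarian follicle and steroid and -0.80 for 6 skeletal muscle markers, all nearer to 0 than the 1.31 of white adipocyte markers. The summed level of the cancer epithelium markers was 71113, 83832 and 82497 in WT tumors 1, 2 and 3 and 64110.0, 60878 and 69218 in knockout tumors 1, 2 and 3, with all knockout tumors lower. The mean log2 value of the same 9 markers overlapped, at 11.71, 12.4 and 12.95 in WT and 12.3, 12.15 and 11.6 in knockout tumors, and singly only *Krt8* and *Krt19* were lower in all knockout tumors. The part of tumor composition in the adipokine values was not tested.

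**Figure D4:**
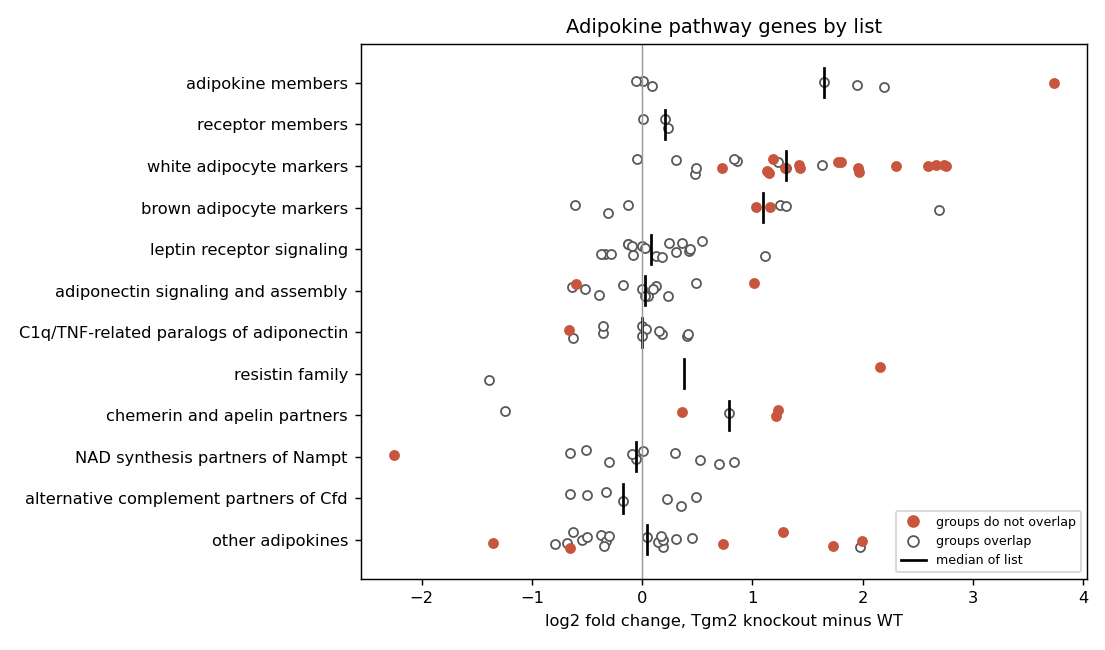
Log2 fold change of each gene, *Tgm2* knockout minus WT, with 1 row per gene list, 1 point per gene and a bar at the list's median. White adipocyte markers sit mostly above 0 with a median of 1.31, while lists of leptin receptor and adiponectin signaling genes center near 0, with medians of 0.08 and 0.03.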

How the data were processed

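RNA from 6 primary tumors (3 WT and 3 *Tgm2* knockout hosts, grouped by the labelled genotype) was sequenced as poly(A) libraries, and the submitters' processing notes name kallisto 0.46.2 and GRCm38. The deposited signal is 1 table by the authors of normalized counts for 20076 genes. It is labelled TPM, but its column sums differ between tumors (32316613 to 37717165), and low values (up to 5.5 reads) of genes with 1 transcript were within 0.1 of whole reads, scaled by a factor near 1, in 95.5% to 99.1% of cases per tumor, against 40.96% to 49.2% for genes with several transcripts, so levels of different genes were compared only per kilobase of GENCODE M21 exon (GRCm38, 94.8% of genes matched by symbol). An exception was the choice of list genes to name, which used mean normalized counts without this scaling. Values were not counts, so a count model was not the main test. Genes at 1 or more in 3 or more tumors (19667, all 10 members included) were fitted as log2(value + 1) by limma 3.58.1 with a variance trend in R 4.3.3 (two-sided, Benjamini-Hochberg adjustment, limits 0.05 and an absolute log2 fold change of 1). Tables and figures used Python 3.11.15. An exact permutation test of 3 against 3 tumors cannot go below p = 0.1 and was not used.

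The members and gene lists were chosen with earlier results of these data known. Named genes are all members, the 3 genes of each list with the highest mean normalized counts and any past the limits, the 10 genes nearest to *Lep* and the 3 nearest to each other member, and others are named as chosen after their values were seen, which holds for all list genes named for passing the unadjusted limits. Replicates are labelled as separate mice. Their numbers were not taken as pairs, since the deviations of same-numbered tumors correlated at -0.20, 0.28 and -0.31. Alternatives covered pseudocounts, filters, scalings, the variance trend, a replicate block, an adipocyte covariate, the main fit without its fold change limit and leaving out each tumor, and 3 other adipocyte references were chosen after seeing the data. The scripts were tested on simulated data. The values of 1 gene of leptin receptor signaling are not reported here.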

Additional observations from a re-analysis of the deposited data

How the results depend on the processing

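*Lep* had a positive log2 fold change under every alternative run but was past the limits in 6 of 11 alternatives and in 0 of the 6 fits without 1 tumor, which have fewer samples. The 11 include the main fit without its fold change limit, where *Lep* could not fail. The cause was not tested for the 5 in which *Lep* was not past the limits: with a pseudocount of 10, quantile normalization, no variance trend, the replicate block or the white adipocyte covariate, 0 members were past them. In place of 20 genes higher, there were 4 with no variance trend, 5 with the replicate block and 0 with the covariate. Numbers shared by tumors do not pair them, so the block is only another fit. Without each tumor in turn, 2 to 15 genes were higher (2 without WT tumor 2), 0 to 1 lower (1 without WT tumor 1) and 0 to 0 members past the limits. With the covariate, which itself differs between the groups, log2 fold changes were 3.14 for *Lep*, -0.79 for *Adipoq*, -0.96 for *Retn*, -1.65 for *Cfd*, -0.81 for *Nampt*, -0.96 for *Apln*, 1.19 for *Lepr*, -0.55 for *Adipor1* and -0.16 for *Adipor2*. Relative to *Plin1*, *Plin4*, *Cidec* and *Lipe* alone, the difference was 1.70 for *Lep*, -0.093 for *Adipoq*, -1.96 for *Rarres2*, -2.03 for *Nampt*, -2.04 for *Adipor1* and -1.81 for *Adipor2*. Relative to *Adipoq* it was -1.94 for *Nampt*, -1.95 for *Adipor1* and -1.72 for *Adipor2*. No partner or marker gene passed the adjusted limits under any alternative run. Read depth was low for *Lep* in WT tumors, with an estimated 17.9 reads in WT tumor 3.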
